A study of Mus musculus with 9 samples.

Results

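The genes described here are 10 genes of the T cell receptor complex and of T cell identity, not all of them confined to T cells. They are Cd3d, Cd3e, Cd3g, Cd4, Cd8a, Cd8b1, Lck, Tcf7, Lef1 and Foxp3. They were taken by symbol from the deposited mRNA table, in which each had 1 row among 22564 protein-coding genes, and all 10 passed the filter on low counts that left 14074 genes for testing. The tissue was lung from mice of the GFP-LC3 strain, so that every group, sham included, carries a fluorescent reporter of autophagy (GFP joined to LC3). The brain was the irradiated organ, and the comparisons address bystander effects in the lung. The 9 libraries form a series of 0, 1 and 3 exposures with 3 libraries each: sham irradiation, a single whole-brain X-ray exposure of 10 Gy at 2 Gy per min, and 3 such exposures of 10 Gy at weekly intervals over 3 weeks. The labels give no age, no time from exposure to collection and no schedule for the sham group, so differences in these cannot be told apart from exposure. Nothing in the labels says that each library came from a separate animal, so p-values measure the spread between these libraries, which may be partly technical.

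The T cell receptor recognizes peptides held by MHC molecules, and it reaches the cell surface only together with the CD3 chains, which carry its signal inwards. CD4 and CD8 bind MHC class II and class I and bring the kinase LCK to the receptor, which starts the phosphorylation cascade. TCF7 and LEF1 are related transcription factors of T cell development and of naive and memory cells, and FOXP3 is the master regulator of regulatory T cells, which restrain inflammation. The lung holds T cells in its vessels, interstitium and airways, and in bulk RNA a smaller number of T cells and less RNA per cell cannot be told apart.

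None of the 10 genes passed the test in any of the 3 comparisons. Cd3e stood highest after a single exposure, where its libraries did not overlap with sham, but its adjusted p was 0.323. The other 9 genes overlapped between single exposure and sham. The second single exposure library was the highest of all 9 for 5 of the 10 genes.

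The 3 CD3 genes lie together on chromosome 9 of GRCm38. Cd3g (chr9:44969572-44980431, minus strand) and Cd3d (chr9:44981786-44987339, plus strand) start 1355 bases apart and are read away from each other. Cd3e (chr9:44998740-45009627, minus strand) lies beyond Cd3d, and the RefSeq starts of these genes, at 45009611 and 44981786, are 27825 bases apart. Gm48719, an antisense gene, overlaps Cd3e, so reads of both cannot be told apart if the counting did not use strand. Gm48720 overlaps Cd3e on the same strand, so strand does not separate its reads from those of Cd3e. The promoter windows of the 3 CD3 genes run from 250 bases before to 50 bases after the RefSeq start (GRCm38.p6). They are shown because these genes share a locus. That of Foxp3 is shown as that of the 10 whose pattern was least like theirs. Sequences run 5′ to 3′ along the gene's own strand. Capitals mark the letters CTTTGA or CTTTGT on either strand, the core bound by TCF and LEF proteins. The windows are at chr9:44981536-44981835 for Cd3d, chr9:44980382-44980681 for Cd3g, chr9:45009562-45009861 for Cd3e and chrX:7579426-7579725 for the first of both Foxp3 starts.
Cd3d: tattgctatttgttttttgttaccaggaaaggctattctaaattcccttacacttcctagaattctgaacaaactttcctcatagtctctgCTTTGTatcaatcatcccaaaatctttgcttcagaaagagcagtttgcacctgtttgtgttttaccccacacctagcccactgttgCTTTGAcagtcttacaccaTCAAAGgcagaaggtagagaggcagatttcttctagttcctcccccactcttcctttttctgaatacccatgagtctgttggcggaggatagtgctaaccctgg
Cd3g: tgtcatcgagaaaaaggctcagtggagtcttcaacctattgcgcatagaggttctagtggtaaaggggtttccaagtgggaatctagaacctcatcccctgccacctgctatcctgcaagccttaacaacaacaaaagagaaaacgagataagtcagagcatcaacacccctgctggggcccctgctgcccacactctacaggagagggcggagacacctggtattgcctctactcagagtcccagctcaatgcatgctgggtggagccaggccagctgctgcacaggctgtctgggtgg
Cd3e: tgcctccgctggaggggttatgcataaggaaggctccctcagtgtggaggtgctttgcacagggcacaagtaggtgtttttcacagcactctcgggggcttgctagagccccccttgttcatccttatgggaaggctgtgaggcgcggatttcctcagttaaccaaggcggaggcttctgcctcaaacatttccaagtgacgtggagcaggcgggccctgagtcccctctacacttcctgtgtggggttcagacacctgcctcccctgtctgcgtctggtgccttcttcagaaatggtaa
Foxp3: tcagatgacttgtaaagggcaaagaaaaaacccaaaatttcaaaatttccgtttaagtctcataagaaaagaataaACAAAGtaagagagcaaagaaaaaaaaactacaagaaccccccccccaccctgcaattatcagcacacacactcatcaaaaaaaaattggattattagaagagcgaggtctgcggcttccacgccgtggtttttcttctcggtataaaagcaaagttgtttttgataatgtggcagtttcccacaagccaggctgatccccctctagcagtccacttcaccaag

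RefSeq windows were matched for 8 of the 10 genes, 14 windows in all. The TCF and LEF letters occurred in 4 of these 14 windows, 1 each of Cd3d, Lck, Lef1 and Foxp3, and 31.2% of all 32851 windows of this length hold them. Cd3d had 3 matches and the Cd3g and Cd3e windows had none, which says only that these letters are absent from those windows. The RUNX core TGTGGT, searched on both strands, occurred in 1 window, that of the first Lck start, against 16.8% of all windows. A match is a description of the letters and was not related to the measured values.

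The libraries held 4987829 to 7381008 fragments. The lung marker Sftpc, which encodes a surfactant protein of alveolar type II cells, had 1446 to 7001 CPM (fragment counts scaled by library size and TMM factors) in all 9 libraries, with the lowest value in the first single exposure library. That library also stood apart in the levels of other tissues: the cardiac myosin gene Myh6 had 5176 CPM there and 10.3 to 243 CPM in the other 8, and the B cell gene Ms4a1 had 69.3 CPM against 13.3 to 25.4 CPM. Its share of mitochondrial mRNA was 7.16%, with 5.82% in the first 3 weekly exposures library and 1.73 to 3.10% in the others, and the first principal component, with 35.8% of the variance, separated it from the rest. The Y-linked genes Ddx3y, Eif2s3y, Kdm5d and Uty were at 0 in the third 3 weekly exposures library and had 131 to 657 fragments in the other 8; the labels do not give the sex of the animals. The first sham library lay between the other 2 sham libraries in 70.9% of genes, where the other 8 libraries lay between their group mates in 12.9 to 42.6%. Of the thymus genes, those of receptor recombination were at or near 0: Rag2 was 0 in every library, Rag1 had 0 to 2 fragments and Dntt 0 to 2. The 11 listed thymus genes in the table, which include Cd4 and Cd8b1, summed to 32.2 to 49.6 CPM, and Cd1d1 among them had 48 to 116 fragments.

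The FPKM scale divides by transcript length, so levels of different genes can be compared as far as the lengths used hold. Lck was highest with a mean of 10.3 ± 2.06 FPKM (SD over all 9 libraries) and Tcf7 followed with 9.98 ± 2.67. For Lck, FPKM and CPM did not run in parallel. The first single exposure library had 8.92 FPKM at 21.1 CPM, and the second 3 weekly exposures library 12.9 FPKM at 16.4 CPM. The deposited locus of Tcf7 also holds other genes, as described below. Cd3e averaged 7.63 ± 2.61 FPKM, Cd4 6.56 ± 1.28 and Cd3g 5.77 ± 2.58. Of the neighbours in this order, Lck exceeded Tcf7 in 4 of 9 libraries, Tcf7 exceeded Cd3e in 7, Cd3e exceeded Cd4 in 5 and Cd4 exceeded Cd3g in 5. Lef1 (4.09 ± 1.69 FPKM), Cd3d (3.17 ± 1.28), Cd8b1 (2.02 ± 1.23) and Cd8a (1.85 ± 0.751) were lower, and Cd8b1 exceeded Cd8a in 6 of 9 libraries. Foxp3 had the lowest mean, 0.410 ± 0.190 FPKM, and lay below Cd8a in all 9. Cd3d exceeded Cd8b1 in 9 libraries, and Cd3g exceeded Lef1 in 8.

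**Figure D1:**
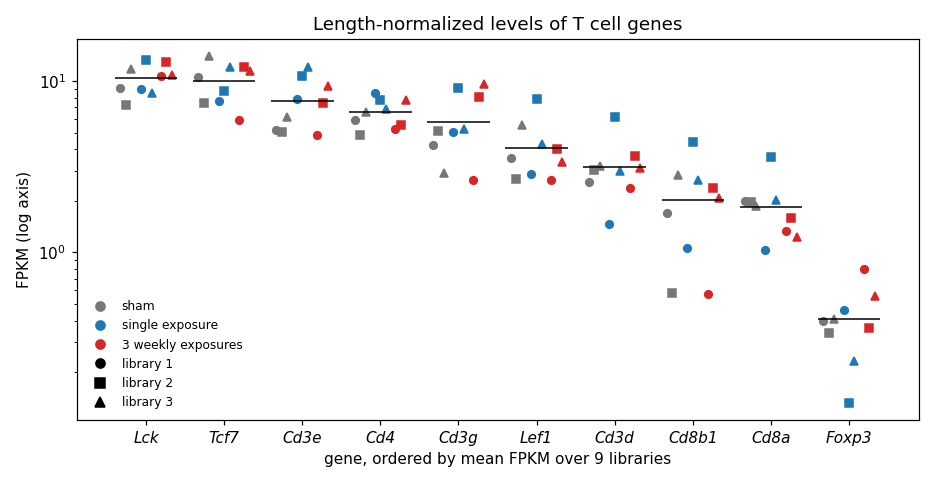
FPKM (log axis) of the 10 genes in each of 9 lung libraries, ordered by mean; colours mark the group, symbols the library number, and lines the mean of all 9. Lck, Tcf7, Cd3e, Cd4 and Cd3g lie in a band with much overlap, and Foxp3 has the lowest mean, with libraries at 0.133 to 0.798 FPKM.

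The CD3 chains couple the receptor to signalling. Cd3e had 8.49, 8.29 and 10.0 CPM in sham libraries 1 to 3, 12.4, 14.8 and 17.9 CPM after a single exposure, and 9.07, 11.3 and 14.3 CPM after 3 weekly exposures. All 3 single exposure libraries lay above all 3 sham libraries, and the 3 weekly exposures libraries overlapped with both groups. Against sham, the log2 fold change of Cd3e was 0.75 ± 0.24 (SE; 95% interval 0.20 to 1.30) after a single exposure, with an unadjusted p of 0.0129 and an adjusted p of 0.323 in edgeR's quasi-likelihood test with Benjamini-Hochberg adjustment over all genes. It was 0.37 ± 0.25 (interval -0.18 to 0.92; adjusted p = 0.765) after 3 weekly exposures against sham, and -0.38 ± 0.24 (interval -0.92 to 0.16; adjusted p = 0.799) for 3 weekly exposures against a single exposure. With any 1 of the 9 libraries left out, the single exposure value stayed between 0.61 and 0.87.

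Cd3d had 3.84, 4.52 and 4.72 CPM in sham libraries, 2.12, 7.75 and 3.99 CPM after a single exposure, and 4.01, 5.04 and 4.26 CPM after 3 weekly exposures. Its lowest and highest values of all 9 libraries were both in the single exposure group, from 14 and 45 fragments, and the other groups lay between them. The log2 fold change was 0.08 ± 0.45 (interval -0.93 to 1.09; adjusted p = 0.958, edgeR) after a single exposure against sham and 0.03 ± 0.45 (interval -0.98 to 1.04; adjusted p = 0.993) after 3 weekly exposures against sham.

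Cd3g had 4.64, 5.65 and 3.15 CPM in sham libraries, 5.31, 8.26 and 5.11 CPM after a single exposure, and 3.32, 8.18 and 9.67 CPM after 3 weekly exposures. Its 3 weekly exposures libraries spread most, with 1 near the lowest sham value and 2 above every sham library. Against sham, the log2 fold change of Cd3g was 0.47 ± 0.44 (interval -0.52 to 1.46; adjusted p = 0.685, edgeR) after a single exposure and 0.65 ± 0.44 (interval -0.33 to 1.64; adjusted p = 0.769) after 3 weekly exposures. Without the first 3 weekly exposures library the second of these was 0.99, with an unadjusted p of 0.0278 (edgeR). That p was the smallest of all settings tried for this fold change.

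**Figure D2:**
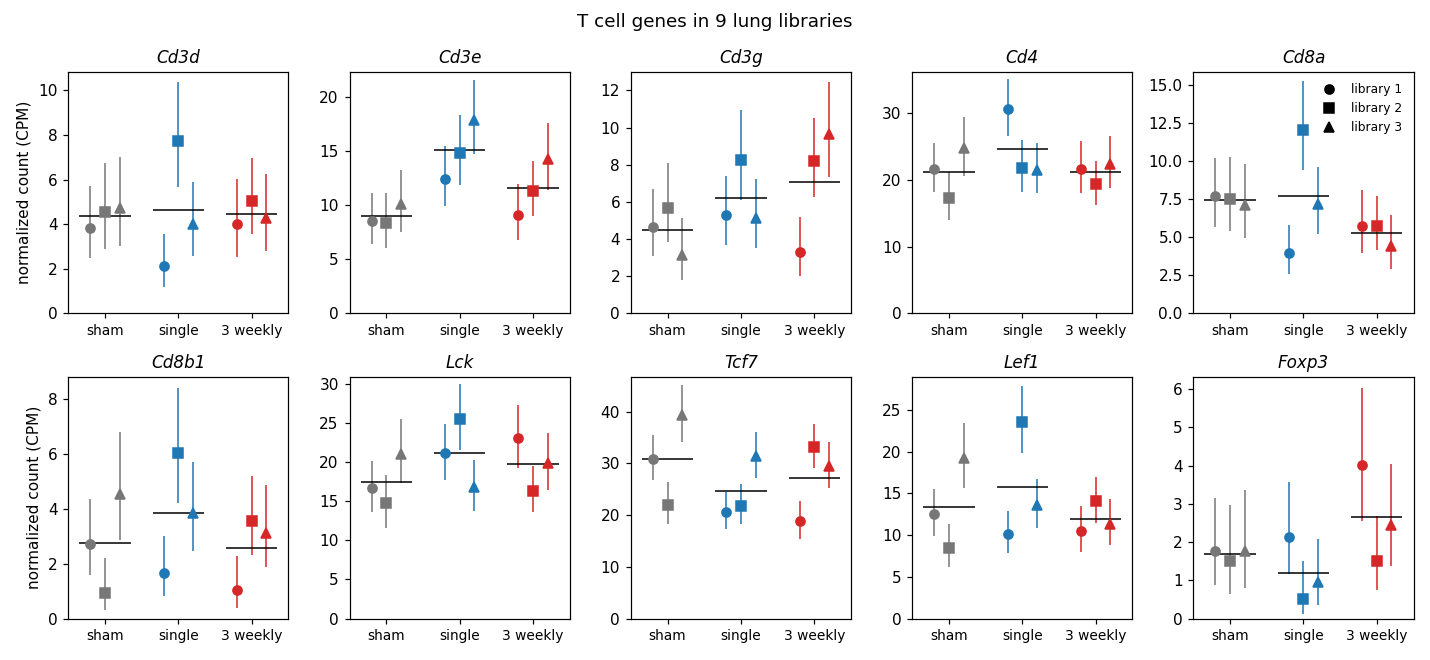
CPM of each of the 10 genes by library (symbols), with exact Poisson 95% intervals for counting error and the group mean (line); groups run from sham to a single exposure to 3 weekly exposures. Only Cd3e after a single exposure (12.4 to 17.9 CPM) lies wholly above sham (8.29 to 10.0 CPM), and Cd8a after 3 weekly exposures (4.42 to 5.76 CPM) wholly below sham (7.08 to 7.69 CPM).

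Of the coreceptors, Cd4 (chr6:124864692-124888221, minus strand), which marks helper and regulatory T cells but is also carried by some other leukocytes, had 21.6, 17.3 and 24.8 CPM in sham libraries, 30.6, 21.9 and 21.5 CPM after a single exposure, and 21.6, 19.4 and 22.5 CPM after 3 weekly exposures. The groups overlapped, and the first single exposure library, in which heart and B cell genes were also high, was the highest. Relative to sham, Cd4 had a log2 fold change of 0.22 ± 0.21 (interval -0.25 to 0.68; adjusted p = 0.688, edgeR) after a single exposure and -0.01 ± 0.21 (interval -0.47 to 0.46; adjusted p = 0.996) after 3 weekly exposures, the narrowest intervals of the 10 genes.

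Cd8a (chr6:71373427-71379173, plus strand), the alpha chain of the coreceptor of cytotoxic T cells, had 7.69, 7.54 and 7.08 CPM in sham libraries, 3.94, 12.1 and 7.18 CPM after a single exposure, and 5.76, 5.72 and 4.42 CPM after 3 weekly exposures. The single exposure libraries lay on both sides of the narrow sham range, and all 3 weekly exposures libraries lay below it. The log2 fold change against sham was 0.05 ± 0.38 (interval -0.81 to 0.91; adjusted p = 0.968, edgeR) after a single exposure and -0.49 ± 0.39 (interval -1.36 to 0.39; adjusted p = 0.807) after 3 weekly exposures. Without the second single exposure library the first of these was -0.42.

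Cd8b1 (chr6:71322788-71337494, plus strand), which encodes the beta chain that pairs with CD8 alpha on conventional cytotoxic T cells, had 2.72, 0.942 and 4.53 CPM in sham libraries, 1.67, 6.03 and 3.83 CPM after a single exposure, and 1.05, 3.54 and 3.11 CPM after 3 weekly exposures. These rest on 5 to 35 fragments, and the groups overlapped. Intervals were wide, with a log2 fold change of 0.49 ± 0.68 (interval -1.05 to 2.02; adjusted p = 0.798, edgeR) after a single exposure against sham and -0.07 ± 0.69 (interval -1.63 to 1.48; adjusted p = 0.991) after 3 weekly exposures against sham.

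The ratio of Cd4 to Cd8a in FPKM was 2.44 to 3.53 in sham libraries, 2.16 to 8.21 after a single exposure and 3.49 to 6.27 after 3 weekly exposures. Its highest values, 8.21 and 6.27, were in the first single exposure library and the third 3 weekly exposures library, which were also the libraries with the highest level of the adipocyte gene Adipoq, at 115 and 136 CPM against 0 to 9.99 CPM in the other 7. The part of these tissues in the ratio was not tested.

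Lck (chr4:129548344-129573641, minus strand), the kinase that first phosphorylates the CD3 chains, had 16.7, 14.7 and 21.1 CPM in sham libraries, 21.1, 25.5 and 16.8 CPM after a single exposure, and 23.0, 16.4 and 19.8 CPM after 3 weekly exposures. The groups overlapped. Against sham, Lck had a log2 fold change of 0.27 ± 0.23 (interval -0.24 to 0.79; adjusted p = 0.650, edgeR) after a single exposure and 0.18 ± 0.23 (interval -0.34 to 0.69; adjusted p = 0.904) after 3 weekly exposures.

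Of the transcription factors, Tcf7 had 30.9, 22.1 and 39.4 CPM in sham libraries, 20.6, 21.9 and 31.4 CPM after a single exposure, and 18.9, 33.3 and 29.5 CPM after 3 weekly exposures. Its spread over the 9 libraries was 10.1 times the variance that counting alone gives, the largest of the 10 genes. The log2 fold change against sham was -0.32 ± 0.29 (interval -0.97 to 0.33; adjusted p = 0.669, edgeR) after a single exposure and -0.18 ± 0.29 (interval -0.82 to 0.47; adjusted p = 0.927) after 3 weekly exposures. The locus the authors' file gives for Tcf7 spans 996260 bases and holds 18 other protein-coding genes, against chr11:52252371-52283014 in GENCODE M21; how its value was made over that region is not given in the sources used here.

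Lef1 (chr3:131110471-131224356, plus strand), the related factor, had 12.5, 8.48 and 19.3 CPM in sham libraries, 10.2, 23.6 and 13.6 CPM after a single exposure, and 10.5, 14.0 and 11.3 CPM after 3 weekly exposures. The second single exposure library was the highest and the second sham library the lowest. Lef1 had a log2 fold change against sham of 0.23 ± 0.37 (interval -0.61 to 1.07; adjusted p = 0.825, edgeR) after a single exposure and -0.16 ± 0.37 (interval -1.01 to 0.68; adjusted p = 0.949) after 3 weekly exposures. Lef1 was 0.295 to 0.442 times Tcf7 in FPKM in 8 libraries and 0.906 times in the second single exposure library.

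Foxp3 was read from few fragments: 11, 8 and 9 in sham libraries, 14, 3 and 6 in single exposure libraries, and 23, 11 and 15 in 3 weekly exposures libraries. In CPM these were 1.76, 1.51 and 1.77 in sham libraries, 2.12, 0.517 and 0.958 in single exposure libraries, and 4.01, 1.499 and 2.46 in 3 weekly exposures libraries. The highest value was in the first 3 weekly exposures library, and all groups overlapped. The log2 fold change was -0.47 ± 0.60 (interval -1.82 to 0.89; adjusted p = 0.778, edgeR) after a single exposure against sham, 0.64 ± 0.58 (interval -0.66 to 1.94; adjusted p = 0.841) after 3 weekly exposures against sham, and 1.11 ± 0.59 (interval -0.21 to 2.43; adjusted p = 0.772) for 3 weekly exposures against a single exposure. The last was the largest fold change of any of the 10 genes in any comparison, and was 0.70 without the first 3 weekly exposures library. Without the first single exposure library it was 1.80, with an unadjusted p of 0.0197 (edgeR), the smallest p of all settings tried for this fold change. Foxp3 (chrX:7573644-7595245 in GENCODE M21, plus strand) overlaps Ppp1r3f and Ccdc22 on the other strand. The locus the authors' file gives for Foxp3 is wider, with 48222 bases, and also holds both of these genes. The kit marks strand, but whether the counting used it is not given in the sources used here.

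**Figure D3:**
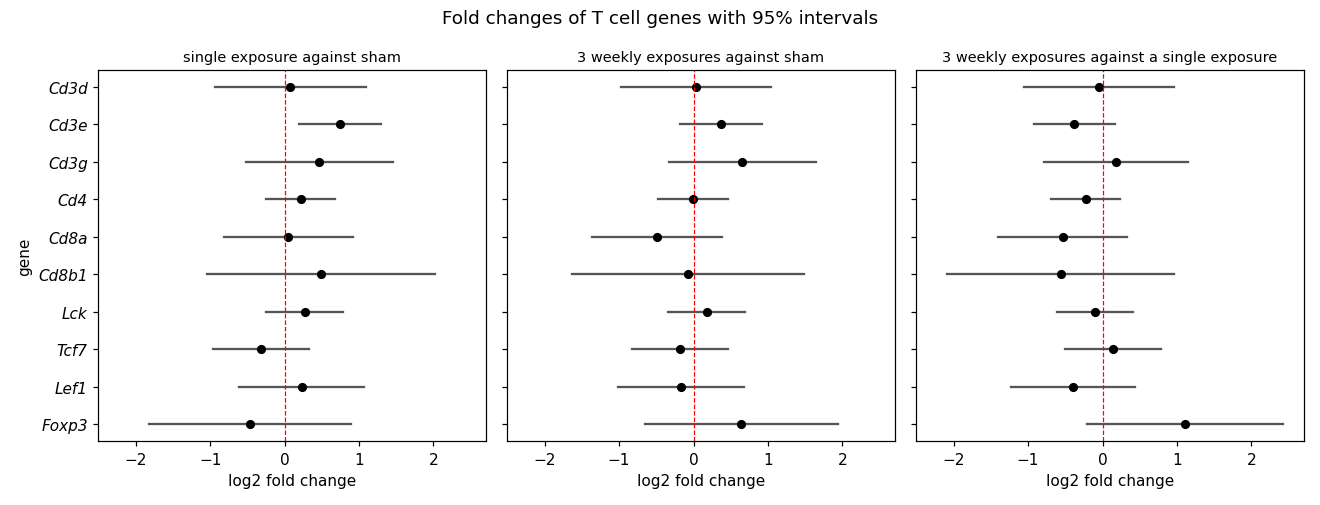
Log2 fold change of each gene (point) with its 95% interval (line) in the 3 comparisons; the dashed line is no change. Of the 30 intervals, only that of Cd3e after a single exposure against sham (0.20 to 1.30) lies off 0.

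Apart from Cd3e and Foxp3, the other 8 genes had log2 fold changes of -0.56 (Cd8b1) to 0.18 (Cd3g) for 3 weekly exposures against a single exposure, with adjusted p of 0.820 to 0.984 (edgeR), and all 8 overlapped between both groups.

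Counted over the 10 genes, a single exposure against sham gave 0 called at an adjusted p under 0.05 by edgeR, where 0% of all 14074 genes were called, and 1 gene (Cd3e) at an unadjusted p under 0.05, where 12% of all genes (1693) were. By direction, 8 were above and 2 below 0, with a median log2 fold change of 0.22 against 0.03 over all genes, and 53.8% of all genes were above 0. Of the 10, 1 lay wholly above sham, where 10.2% of all genes did, and 0 wholly below, where 10.7% did, so the counts are near the background. That median was -0.06 without the second single exposure library, 0.09 without the second sham library, and 0.40 without the first single exposure library, the one with high heart genes.

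For 3 weekly exposures against sham, 0 of 10 were called (0% of all genes), and 0 had an unadjusted p under 0.05, against 7.9% of all genes (1112). Of the 10, 5 were above and 5 below 0, with a median log2 fold change of 0.01 against 0.02 over all genes, of which 52.4% were above 0. Only Cd8a did not overlap, on the lower side, where 11.1% of all genes did not, and on the higher side 10.8% of all genes did not. Without the third sham library the median was 0.26.

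For 3 weekly exposures against a single exposure, 0 of 10 were called (0% of all genes), and 0 had an unadjusted p under 0.05, against 6.54% of all genes (920). Here 3 were above and 7 below 0, with a median of -0.16 against -0.01 over all genes, of which 48.3% were above 0, and 0 of the 10 were without overlap, against 4.1% of all genes on the higher and 3.86% on the lower side. These comparisons share libraries, so they are not independent of each other. Without the second single exposure library the median was 0.04. DESeq2 called 198 of all genes after a single exposure against sham, 89 after 3 weekly exposures against sham and 5 between both irradiated groups, and 0 of the 10 T cell genes in each.

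The 10 genes summed to 91.0 to 136 CPM in sham libraries, 110 to 142 CPM after a single exposure and 101 to 121 CPM after 3 weekly exposures. The second single exposure library was highest of all 9 for 5 of the 10 genes (Cd3d, Cd8a, Cd8b1, Lck and Lef1). It was lowest for Foxp3, and its median over the 10 genes stood 0.70 above the sham mean on the log2 scale. In the same library 16 cytotoxic and natural killer genes summed to 195 CPM, against 35.2 to 71.0 CPM in the other 8, and 10 monocyte and macrophage genes to 6127 CPM, against 2374 to 4167 CPM. The natural killer marker Ncr1 had 15.0 CPM there and 0.819 to 5.27 CPM elsewhere. The part of these cells in the T cell values was not tested. The second sham library was lowest for 5 genes (Cd3e, Cd4, Cd8b1, Lck and Lef1).

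**Figure D4:**
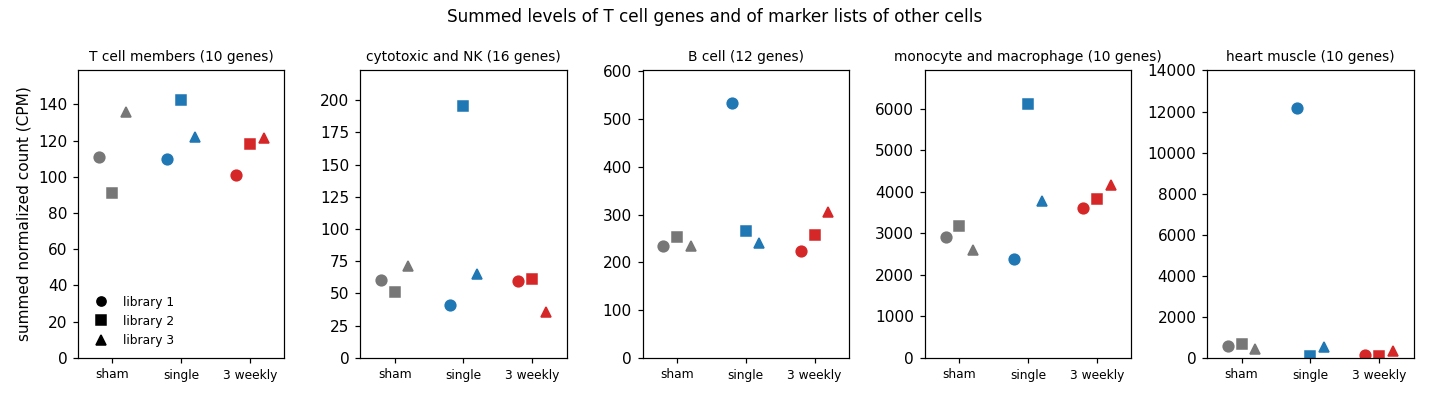
Summed CPM per library of the 10 T cell genes and of marker lists for cytotoxic and natural killer cells, B cells, monocytes and macrophages, and heart muscle, with groups from sham to 3 weekly exposures and symbols for the library number. The second single exposure library is high for cytotoxic and natural killer genes (195 CPM) and for monocyte and macrophage genes (6127 CPM). Its T cell sum (142 CPM) lies close to that of the third sham library (136 CPM). The first single exposure library is high in B cell genes (533 CPM) and heart genes.

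Across the 9 libraries the variance of each of the 10 genes was 3 to 10.1 times that from counting alone. Each was set against the mean standardized log2 CPM of Cd3d, Cd3e and Cd3g. Pearson's r was only 0.65 for Cd3d, 0.73 for Cd3e and 0.82 for Cd3g, though these genes are part of that score. For the others it was 0.66 for Cd8b1, 0.52 for Lef1, 0.35 for Cd8a, 0.16 for Lck, 0.13 for Tcf7, -0.25 for Cd4 and -0.68 for Foxp3. The Foxp3 value rests on 3 to 23 fragments per library. The 10 other genes with the highest r were I830012O16Rik, Traf6, Erap1, Olfm2, Pank3, Commd8, Pydc3, Zbtb14, Rhoa and Abhd5, at 0.93 to 0.97. These are descriptions over 9 libraries that share depth, composition and group, and none of those 10 was on a T cell list.

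Other genes of the pathway, from lists by known function, gave 0 calls at an adjusted p under 0.05 in any comparison (edgeR). At an unadjusted p under 0.05, 6.6% of all genes were higher and 5.43% lower after a single exposure against sham, 4.26% higher and 3.64% lower after 3 weekly exposures against sham, and 2.79% higher and 3.74% lower for 3 weekly exposures against a single exposure. The lists are small, and their counts are descriptions beside these shares. Of 7 genes listed for the receptor chains, only the zeta chain gene Cd247 was found by a unique symbol. The listed constant regions of the alpha, beta, gamma and delta chains (Trac, Trbc1, Trbc2, Trdc, Trgc1 and Trgc2) have no value here. Cd247 had 5.84 to 8.07 CPM in sham libraries, 6.52 to 9.12 CPM after a single exposure and 7.09 to 8.38 CPM after 3 weekly exposures. Its log2 fold change against sham was 0.13 ± 0.26 after a single exposure and 0.19 ± 0.26 after 3 weekly exposures. Of 23 tested genes of proximal signalling, 2 were higher and 0 lower at an unadjusted p under 0.05 after a single exposure against sham, and 2 higher and 1 lower after 3 weekly exposures against sham. Rasgrp1, the Ras activator downstream of the receptor, had 42.6, 47.7 and 30.3 CPM after a single exposure against 22.9, 23.2 and 21.5 CPM in sham libraries, a log2 fold change of 0.84 ± 0.19 (unadjusted p = 0.00160, adjusted p = 0.223, edgeR). After 3 weekly exposures it was 0.46 ± 0.19 (adjusted p = 0.601). Ptprc (CD45) was at 0.54 after a single exposure and Fyb at -0.48 after 3 weekly exposures, both against sham. Between 3 weekly exposures and a single exposure 0 of the 23 passed, and the smallest p were those of Ptprc (0.0595) and Rasgrp1 (0.0767).

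Of 19 tested surface and costimulation genes, 4 were higher and 0 lower at an unadjusted p under 0.05 after a single exposure against sham (Cd40lg, Thy1, Btla and Cd5), and 2 were higher (Cd40lg and Cd5) after 3 weekly exposures against sham. Thy1 had 69.8, 42.2 and 40.2 CPM after a single exposure, highest in the library with high heart genes, against 23.0 to 33.9 CPM in sham libraries. The part of other cells in the values of these genes was not tested. Cd40lg, the CD40 ligand of helper T cells, had 2, 2 and 1 fragments in sham libraries, 14, 9 and 23 in single exposure libraries, and 5, 28 and 4 in 3 weekly exposures libraries. Its adjusted p was 0.292 after a single exposure. Cd5, a surface brake on receptor signalling, had 3.84, 4.71 and 4.33 CPM in sham libraries, 6.22, 9.12 and 7.34 CPM after a single exposure, and 9.42, 4.63 and 9.83 CPM after 3 weekly exposures. In 3 weekly exposures against a single exposure, Slamf6 was the 1 gene past that threshold, at -0.93.

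The list of naive and resident T cell trafficking held 16 tested genes. After 3 weekly exposures against sham, 3 were higher (Ccr4, Itgae and Ccr9) and 1 lower (Klf2) at an unadjusted p under 0.05. Klf2 was also lower after a single exposure against sham. Klf2 had 179, 190 and 165 CPM in sham libraries. It had 37.9, 44.8 and 131 CPM after a single exposure, and 60.0, 81.5 and 105 CPM after 3 weekly exposures. The part of cells other than T cells in the Klf2 values was not tested. Ccr4, a chemokine receptor of helper and regulatory T cells, had 6.98, 3.54 and 4.59 CPM after 3 weekly exposures against 0.961, 1.32 and 1.57 CPM in sham libraries, with a log2 fold change of 1.96 ± 0.48 (adjusted p = 0.401, edgeR). Itgae, an integrin chain of tissue-resident T cells that some dendritic cells also carry, had 35.1, 19.6 and 38.2 CPM after 3 weekly exposures against 18.3, 15.3 and 17.3 CPM in sham libraries (0.87 ± 0.29; adjusted p = 0.521). On the list of 14 dendritic cell genes, which also holds Itgae and Ccr9, 7 were higher and 1 lower at that threshold in the same comparison. The summed level of that list was 318 to 444 CPM after 3 weekly exposures and 267 to 328 CPM in sham libraries, and its part in these values was not tested. In 3 weekly exposures against a single exposure, Itgae, Itgb7, Ccr9 and Ccr4 were higher at that threshold (adjusted p = 0.754 for each, edgeR).

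Of 20 tested T lineage transcription factors, Ikzf1 was higher at an unadjusted p under 0.05 after a single exposure against sham, and Stat4 was lower after 3 weekly exposures against sham. Ikzf1, which encodes Ikaros and is also active in other lymphocytes, had 98.2, 97.3 and 76.4 CPM after a single exposure against 55.4, 48.4 and 63.8 CPM in sham libraries (0.70 ± 0.15; adjusted p = 0.215, edgeR). In 3 weekly exposures against a single exposure, Stat4 and Ikzf1 were lower. Of 11 tested regulatory T cell genes, Il2ra and Tnfrsf9 were higher and Areg lower after a single exposure against sham, and Il2ra and Ikzf4 higher and Areg lower after 3 weekly exposures against sham. Il2ra, the interleukin 2 receptor alpha chain, had 3.36, 4.90 and 1.77 CPM in sham libraries, 10.0, 10.5 and 8.14 CPM after a single exposure, and 6.98, 6.13 and 8.68 CPM after 3 weekly exposures. Its log2 fold change against sham was 1.51 ± 0.37 (adjusted p = 0.240) after a single exposure and 1.11 ± 0.37 (adjusted p = 0.516) after 3 weekly exposures, while Foxp3 itself overlapped between all groups. Between 3 weekly exposures and a single exposure 0 of the 11 passed, and the smallest p were those of Tnfrsf4 (0.0866) and Ikzf2 (0.124).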

How the data were processed

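Per the labels' protocols, ribosomal RNA was removed from lung total RNA and stranded libraries were sequenced. Cutadapt 1.9.3, HISAT2 2.0.4 and mm10 are named per the submitters' processing notes; the expression estimator is not given in the sources used here. As deposited, the table holds FPKM and estimated counts per gene and library, per the file headers. The estimated counts deposited were multiples of 1 step per library (0.854 to 1.19). Divided by it, 92.0 to 93.4% lay within 0.1 of a whole number, and all were rounded to whole fragments.

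Fragments were tested with edgeR 4.0.16 (R 4.3.3) after filterByExpr and TMM, in 1 quasi-likelihood fit of all 9 libraries with a mean per group and 6 residual degrees of freedom. P-values were adjusted over 14074 genes by Benjamini-Hochberg. Intervals of fold changes are the estimate plus or minus the t quantile times the standard error, with the standard error taken from the F statistic. CPM intervals are exact Poisson and cover counting error only. DESeq2 1.42.0, limma 3.58.1 on log2(FPKM + 1) or log2(FPKM + 0.1) with at least 0.5 FPKM in 3 libraries, other scalings, no filter and leaving out each library were alternatives. The edgeR code was tested on simulated data. The 10 genes and the gene lists were chosen with earlier results of these data known. All 10 were named in every comparison; of other lists, genes at an unadjusted p under 0.05, otherwise the 2 smallest p; and the 10 genes most correlated with the CD3 score. Values of listed genes are given for the T cell lists, and of other cell types only where they stand beside a result. Some listed genes are not reported here.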

Additional observations from a re-analysis of the deposited data

How the results depend on the processing

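In all 19 alternatives, 0 of the 10 T cell genes were called at an adjusted p under 0.05 in any of the 3 comparisons. Cd3e after a single exposure against sham kept its direction and an unadjusted p under 0.05 throughout, at 0.61 to 0.87. Other fold changes under that p in some but not all settings were Cd3g for 3 weekly exposures against sham, and Foxp3 and Cd8a for 3 weekly exposures against a single exposure. Over the whole table DESeq2 called 198 genes after a single exposure and 89 after 3 weekly exposures, each against sham, and 5 between both irradiated groups. By limma on log2(FPKM + 0.1) these counts were 5, 1 and 1, and on log2(FPKM + 1) they were 3, 0 and 1. With only the 6 libraries compared, 2 were called for 3 weekly exposures against sham. Leaving out a library gave 0 called each time.

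The median of the 10 genes for 3 weekly exposures against a single exposure was -0.339 on log2(FPKM + 0.1). With a library left out it ranged from -0.248 to 0.0372, for 3 weekly exposures against sham from -0.0385 to 0.257, and for a single exposure against sham from -0.0566 to 0.397. Of 30 gene fold changes, 13 changed sign in at least 1 setting, all of them uncalled, and the cause was not tested. After a single exposure against sham, Cd3d was -0.131 and Cd8a -0.120 by voom. After 3 weekly exposures against sham, Cd8b1 was 0.0399 by voom and 0.00356 on log2(FPKM + 0.1), and Cd4 was 0.0717 on log2(FPKM + 1), 0.0815 on log2(FPKM + 0.1) and 0.00333 with no filter. For 3 weekly exposures against a single exposure, Cd3d was 0.174 by voom, and on log2(FPKM + 1) and log2(FPKM + 0.1) Cd3g was -0.0376 and -0.0695 and Lck 0.167 and 0.183.

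With a library left out, single exposure against sham ranged from -0.512 to 0.426 for Cd3d, -0.421 to 0.368 for Cd8a and -0.178 to 0.582 for Lef1. For 3 weekly exposures against sham the ranges were -0.0752 to 0.0950 for Cd3d, -0.133 to 0.116 for Cd4, -0.477 to 0.477 for Cd8b1, -0.364 to 0.0384 for Tcf7 and -0.406 to 0.185 for Lef1. For 3 weekly exposures against a single exposure they were -0.395 to 0.541 for Cd3d, -0.104 to 0.519 for Cd3g, -0.243 to 0.0609 for Lck, -0.0299 to 0.354 for Tcf7 and -0.633 to 0.0134 for Lef1.

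The labels number the libraries 1 to 3 in each group. Deviations from the group mean correlated at -0.0804 to 0.293 between same-numbered libraries, with 4 of 9 pairs over 0.1. Between libraries of other numbers these correlations were -0.376 to 0.242, and 4 of 9 libraries correlated best with their own number. With 3 libraries per group these values cannot decide whether the numbers mark a pairing. With the replicate number as a block, 0 genes were called in each comparison. Under the replicate block Cd3d was -0.0433 and Cd8a -0.0270 for a single exposure against sham, Cd4 0.00148 for 3 weekly exposures against sham and Cd3d 0.0560 for 3 weekly exposures against a single exposure. Foxp3 did not pass the FPKM filter and has no value there. Its 3 to 23 fragments, and 5 to 35 for Cd8b1, limit what these libraries can resolve.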

Other observations

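Lists of other cell types and tissues gave 0 calls at an adjusted p under 0.05 in each comparison (edgeR), and the counts here are at an unadjusted p under 0.05. Of 14 tested cytotoxic and natural killer genes, Ctsw, Klra8 and Ncr1 were higher after a single exposure against sham and 0 were lower. Gzmk, which encodes a granzyme of memory cytotoxic cells, had 18, 7 and 14 fragments in sham libraries, 2, 25 and 3 in single exposure libraries, and 1, 0 and 0 in 3 weekly exposures libraries. It was lower after 3 weekly exposures against sham, and Gzmk, Ctsw and Klrk1 were lower for 3 weekly exposures against a single exposure.

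Of 12 tested B cell genes, Fcer2a, Faim3, Cd79b and Bank1 were higher after a single exposure against sham, and Fcer2a after 3 weekly exposures against sham; the list summed to 533 CPM in the first single exposure library and 223 to 304 CPM in the other 8. Among 14 dendritic cell genes, Fscn1 and Irf8 were higher after a single exposure against sham. After 3 weekly exposures against sham, Fscn1, Irf8, Batf3, Itgae, Xcr1, Ccl22 and Ccr9 were higher and Siglech lower. Xcr1 marks conventional type 1 dendritic cells. Itgae, Ccr9 and Fscn1 were higher for 3 weekly exposures against a single exposure.

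Of 10 monocyte and macrophage genes, Cx3cr1 was higher after a single exposure against sham, and Itgam was lower after 3 weekly exposures, both against sham and against a single exposure. Of 10 tested innate lymphoid and gamma delta T cell genes, Areg was lower after a single exposure against sham and after 3 weekly exposures against sham. Ccl21a, a chemokine that guides naive T cells into lymph nodes, was lower in both irradiated groups against sham, with log2 fold changes of -1.18 ± 0.29 after a single exposure and -0.89 ± 0.29 after 3 weekly exposures. In skeletal muscle, Myh4 had 4995 fragments in the first sham library and 0 in the other 8.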
